A study of Mus musculus with 6 samples.

Results

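The genes described here are 9 members of 2 linked hormone systems of the pancreatic islet, chosen by symbol from the 46959 genes of the deposited table: the prolactin receptor gene Prlr, the growth hormone receptor gene Ghr, the serotonin synthesis genes Tph1, Tph2 and Ddc, the serotonergic transcription factor gene Fev, and the serotonin receptor genes Htr1d, Htr2b and Htr3a. All 9 were found. RNA was sequenced from 3 populations sorted from pooled islets of adult mice that carried both an Ins1-H2b-mCherry and a Ucn3-eGFP transgene, after an overnight culture of the islets and dissociation with trypsin, with 2 libraries per population. Immature beta cells carried mCherry without eGFP, mature beta cells carried both proteins, and double negative cells carried neither and are the non-beta cells of the same organ. The mCherry is driven by Ins1 and marks cells that make or have made insulin, and the eGFP is driven by Ucn3, so the 2 beta cell gates are defined by reporters and not by the genes described here. Values are RPKM, the reads of a gene scaled to its length and to the reads of its library, and all differences are between mean values of log2(RPKM + 1).

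Prolactin and growth hormone bind class I cytokine receptors at the cell surface, which have no enzyme activity and signal through the kinase JAK2 and the transcription factor STAT5, with the SOCS proteins and CISH as feedback inhibitors. In mice, lactogenic hormones of pregnancy act through this receptor on beta cells, where Tph1 is among the induced genes and serotonin acts back on islet cells. Serotonin is made from tryptophan by a tryptophan hydroxylase, encoded by Tph1 or Tph2, and then by the decarboxylase encoded by Ddc, which also makes dopamine. Fev, also known as Pet1, drives the serotonin program of hindbrain neurons and is expressed in islet endocrine precursors.

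The libraries differed in depth and in content. The steps between low values put the depth at 2393840 and 3448925 reads for immature cells, 23718084 and 26824376 for mature cells, and 22063878 and 22731664 for double negative cells. The 7 beta cell markers were present in all libraries and summed to between 72812 and 77922 RPKM in immature cells, 246337 and 263127 RPKM in mature cells, and 4692 and 6998 RPKM in double negative cells. The immature libraries also held transcripts of other cells, with 6 macrophage and immune markers at between 1443 and 1498 RPKM in sum, against 3.05 to 3.28 RPKM in mature cells. The sex labels, female for replicate 2 and male for replicate 1, went against the Y-linked gene Eif2s3y. It stood at 2.23, 0.116 and 0.0423 RPKM in the immature, mature and double negative libraries labelled female, and at 0.1, 0 and 0 RPKM in those labelled male. The series' design text names female mice only. Xist, which is transcribed from an inactive X chromosome, was at 21.4 RPKM or more in all 6 libraries.

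The members fell into 3 patterns. Prlr was highest in mature cells and close to 0 in double negative cells, Fev ran in the opposite order, and Htr2b and Htr3a stood above 1 RPKM in immature cells only. Ghr and Ddc were expressed in all 3 populations, with overlapping immature and mature libraries above the double negative ones. Tph2 was low and Tph1 and Htr1d were near 0 everywhere. Of the 9 members, 7 reached 1 RPKM in at least 2 libraries and were tested with limma together with all other such genes, 13367 in total, and Tph1 and Htr1d did not reach it.

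**Figure D1:**
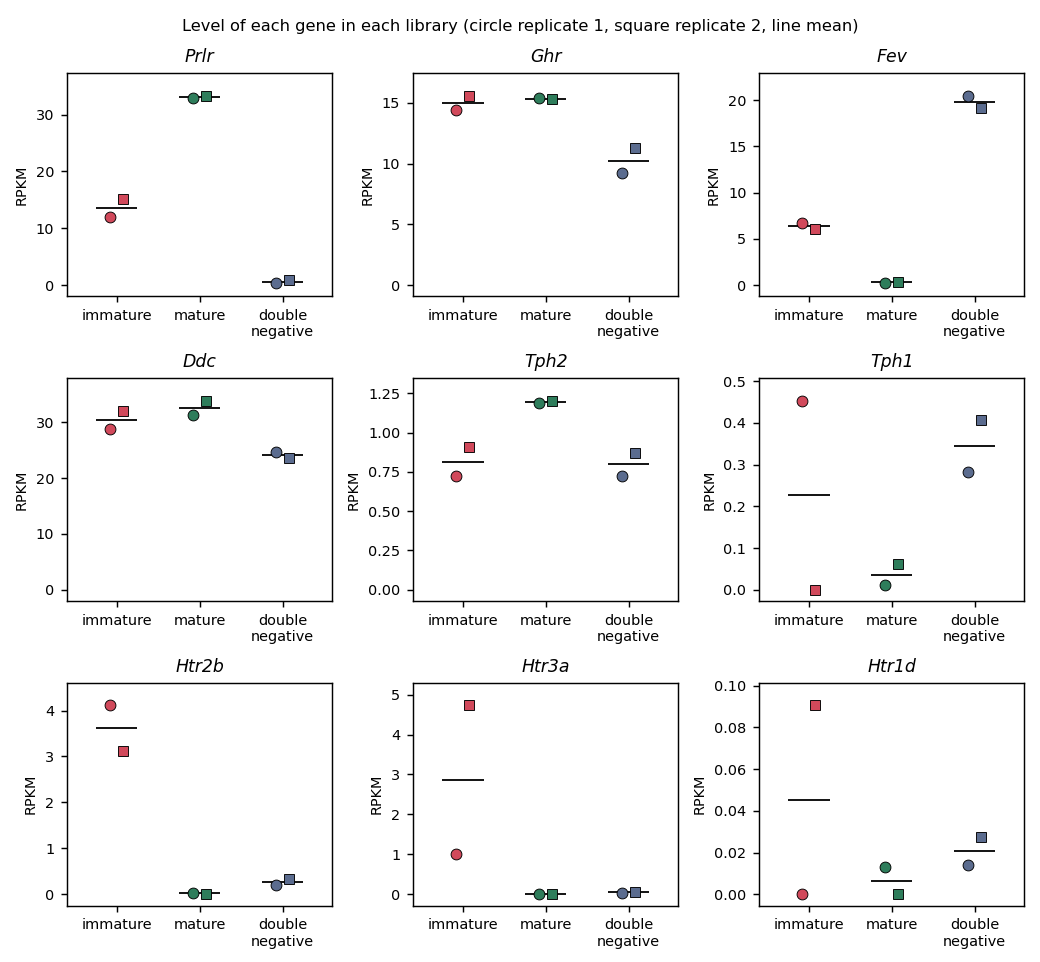
RPKM (vertical axis, linear, a separate scale for each gene) of the 9 members in the immature, mature and double negative libraries, with a circle for replicate 1, a square for replicate 2 and a line at the mean of the 2 libraries. Prlr is highest in mature cells at 33.1 RPKM, Fev is highest in double negative cells at 19.8 RPKM, and Htr2b and Htr3a stand out in the immature libraries.

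The prolactin receptor was a gene of the mCherry-positive cells, most of all of the mature ones. Prlr (ENSMUSG00000005268.20, GRCm38 chromosome 15, 10177238 to 10349180, plus strand) stood at 12.0 and 15.2 RPKM in immature cells, 32.8 and 33.3 RPKM in mature cells, and 0.378 and 0.817 RPKM in double negative cells. Each population was separate from the next, with no overlap of libraries. These values rest on 439 and 804 reads for immature cells, 11950 and 13689 for mature cells, and 128 and 285 for double negative cells. Prlr fell by 1.23 in immature relative to mature cells (SE 0.16, limma adjusted p = 0.00108), against a median difference of 0.29 over all tested genes. It was 4.43 higher in mature than in double negative cells (SE 0.16, limma adjusted p = 1.26e-05) and 3.19 higher in immature than in double negative cells (SE 0.16, limma adjusted p = 5.34e-05). The ratio of means was 55.3 for mature over double negative and 22.7 for immature over double negative cells. Immature cells were also lower than mature cells in all 7 beta cell markers, whose part in the Prlr difference was not tested. In bulk RNA of sorted cells, fewer Prlr-expressing cells and less Prlr RNA per cell cannot be told apart.

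The gap between immature and mature cells was also set against insulin, which marks beta cells in both gates. For every 1000 RPKM of Ins1 there were 0.997 and 1.14 RPKM of Prlr in immature cells, 0.705 and 0.673 RPKM in mature cells, and 1.127 and 1.11 RPKM in double negative cells. On this scale both immature libraries lay above both mature ones. The difference was 0.69 on the log2 scale (SE 0.58) with a limma adjusted p = 0.236. It lay below the median of 2.21 over all genes in this fit. Without double negative replicate 1 the difference was again 0.69 with a limma adjusted p = 0.000364, and without double negative replicate 2 the adjusted p was 0.000347, so this call depends on those libraries. The other 6 tested members passed as higher relative to Ins1, as did 96.3% of the 13366 genes, with 0.00748% lower. Without either immature or either mature library Ghr and Ddc did not pass (limma adjusted p between 0.053 and 0.0762), and without either immature library 1 member passed in all. Every gene shares the spread of Ins1 in this fit, so its p-values are not independent. They can be too small, or too large for a gene that varies with Ins1.

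Prlr has 3 start sites in RefSeq, and the gene-level values do not separate them or the long and short receptor forms. The window around its second start site is shown because, of the 14 promoter windows of 8 members in RefSeq (GRCm38.p6), it is the 1 that holds the STAT motif TTCNNNGAA, the element that STAT5 can bind. The Fev window is shown beside it as that of the member with the opposite order of levels. It holds the GATA motif AGATAA, read on both strands like the other, which also occurs in the Tph2 window. Capitals mark the match, and each window runs 5′ to 3′ on the gene's strand from 250 bases before to 50 bases after the start site. The matches do not overlap another motif searched.
Prlr, second start site, chr15:10223656-10223955, plus strand: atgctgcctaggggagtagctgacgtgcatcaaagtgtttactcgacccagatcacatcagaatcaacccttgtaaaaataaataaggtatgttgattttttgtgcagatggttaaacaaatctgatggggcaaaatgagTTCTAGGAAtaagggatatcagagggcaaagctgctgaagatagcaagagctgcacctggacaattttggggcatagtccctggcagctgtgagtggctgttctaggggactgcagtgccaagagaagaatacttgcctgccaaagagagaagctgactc
Fev, chr1:74885359-74885658, minus strand: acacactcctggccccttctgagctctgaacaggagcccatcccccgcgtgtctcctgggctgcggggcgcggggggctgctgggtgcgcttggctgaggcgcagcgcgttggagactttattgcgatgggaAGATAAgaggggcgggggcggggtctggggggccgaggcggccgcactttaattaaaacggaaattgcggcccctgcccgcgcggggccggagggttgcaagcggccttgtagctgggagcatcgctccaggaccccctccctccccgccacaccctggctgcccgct
The Prlr match begins at position -110 and the Fev match at position -118 relative to the start site. Among 32851 promoter windows of the same length, 8.3% hold TTCNNNGAA and 11.2% hold AGATAA. These matches are letters in a sequence and no measure of binding.

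By the smallest root mean square difference between profiles centred on their own means over the 6 libraries, the genes most like Prlr among 9021 genes were Fam151a, Slc2a2 and Cox6a2. The differences were 0.184, 0.194 and 0.225 on the log2 scale, where Prlr itself departs from its own mean by 1.87. Slc2a2, the main glucose transporter of mouse beta cells, stood at 10.2 and 12.6 RPKM in immature cells, 26.6 and 28.7 RPKM in mature cells and 0.48 and 1.116 RPKM in double negative cells.

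**Figure D2:**
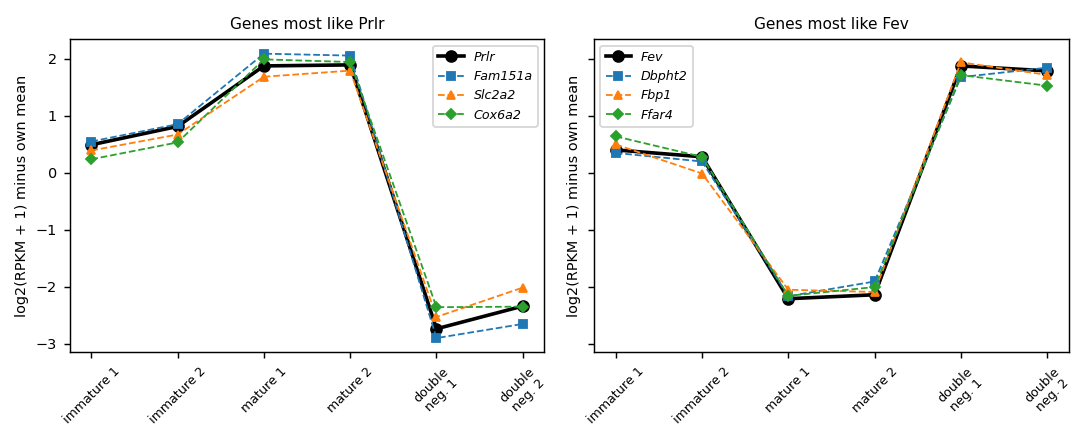
Log2(RPKM + 1) minus the gene's own mean (vertical axis) in each of the 6 libraries (horizontal axis) for Prlr with Fam151a, Slc2a2 and Cox6a2 (left) and for Fev with Dbpht2, Fbp1 and Ffar4 (right). The black line is the member and dashed lines are the 3 most alike genes, which lie within 0.225 of Prlr and 0.169 of Fev as a root mean square.

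The growth hormone receptor gene did not follow Prlr. Ghr (ENSMUSG00000055737.12, chromosome 15, 3317760 to 3583492, minus strand) stood at 14.4 and 15.6 RPKM in immature cells, 15.4 and 15.3 RPKM in mature cells, and 9.2 and 11.3 RPKM in double negative cells. Immature and mature libraries overlapped, and both lay above the double negative ones. The difference between immature and mature cells was -0.03 (SE 0.10, 95% interval -0.28 to 0.22, limma adjusted p = 0.803). After rescaling, which moves the median of all genes from 0.29 to -0.07 by median ratios and to -0.16 by quantiles, it was -0.45 and -0.30 with limma adjusted p = 0.00926 and 0.0476. Ghr rose by 0.55 in mature relative to double negative cells (SE 0.10, limma adjusted p = 0.00533). It rose by 0.51 in immature relative to double negative cells (SE 0.10, limma adjusted p = 0.00686), a call that neither rescaling kept.

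Prlr and Ghr stood in a different ratio in each population. The RPKM of Prlr over that of Ghr was 0.828 and 0.976 for immature cells, 2.14 and 2.17 for mature cells, and 0.0411 and 0.0723 for double negative cells. Their values per kilobase were close in immature cells, while Prlr was the higher in mature and Ghr the higher in double negative cells. This ratio was not tested.

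Fev had the opposite order of levels. Fev (ENSMUSG00000055197.4, chromosome 1, 74881509 to 74885419, minus strand) stood at 6.72 and 6.1 RPKM in immature cells, 0.261 and 0.323 RPKM in mature cells, and 20.5 and 19.2 RPKM in double negative cells. No population overlapped another, and the values rest on 26 and 34 reads for immature cells, 10 and 14 for mature cells, and 730 and 706 for double negative cells. Fev rose by 2.52 in immature relative to mature cells (SE 0.08, limma adjusted p = 6.11e-06), where the ratio of means was 21.96. It fell by 4.01 in mature relative to double negative cells (SE 0.08, limma adjusted p = 4.09e-06) and by 1.49 in immature relative to double negative cells (SE 0.08, limma adjusted p = 7.4e-05).

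Markers of the other endocrine cells ran in the same order as Fev. The 5 alpha cell markers summed to between 19833 and 29134 RPKM in immature cells, 660.4 and 865.7 RPKM in mature cells, and 171611 and 178045 RPKM in double negative cells. The 3 delta cell markers summed to between 3382 and 3698 RPKM in immature cells, 220.4 and 338.2 RPKM in mature cells, and 20362.5 and 21905 RPKM in double negative cells. The 2 PP cell markers summed to between 7291 and 8546 RPKM in immature cells, 156 and 171 RPKM in mature cells, and 19146.5 and 20419 RPKM in double negative cells. All 5 alpha, 3 delta and 2 PP markers were higher in immature than in mature cells, and their part in the Fev difference was not tested. Relative to the glucagon gene Gcg, Fev was lowest in double negative cells, with log2 ratios of -12.03 and -11.61 for immature cells, -10.99 and -11.13 for mature cells, and -13.04 and -13.08 for double negative cells. Relative to the somatostatin gene Sst the log2 ratios were -8.90 and -9.18 for immature cells, -9.66 and -9.98 for mature cells, and -9.91 and -10.12 for double negative cells, and mature and double negative libraries overlapped. The genes most like Fev were Dbpht2, Fbp1 and Ffar4, at root mean square differences of 0.134, 0.148 and 0.169. Fbp1, a fructose bisphosphatase of gluconeogenesis, stood at 57.4 and 40 RPKM in immature cells, 8.97 and 8.7 RPKM in mature cells and 158 and 135 RPKM in double negative cells.

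Transcripts for the 2 steps of serotonin synthesis stood at unequal levels, while serotonin itself was not measured. Ddc (ENSMUSG00000020182.16, chromosome 11, 11814101 to 11898144, minus strand), the decarboxylase of the second step, stood at 28.7 and 32 RPKM in immature cells, 31.4 and 33.9 RPKM in mature cells, and 24.6 and 23.6 RPKM in double negative cells. The immature and mature libraries overlapped and both lay above the double negative ones. Immature and mature cells differed by -0.10 (SE 0.07, 95% interval -0.28 to 0.08, limma adjusted p = 0.273), and by -0.53 after median-ratio rescaling, with a limma adjusted p = 0.00294. Ddc rose by 0.42 in mature relative to double negative cells (SE 0.07, limma adjusted p = 0.0044), with a limma adjusted p = 0.0687 after quantile normalization. In immature relative to double negative cells it rose by 0.32 (SE 0.07, limma adjusted p = 0.0128). That call was lost after both rescalings and without double negative replicate 2 (limma adjusted p = 0.934, 0.562 and 0.0729).

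The hydroxylase genes of the first step were far lower. Tph2 (ENSMUSG00000006764.8, chromosome 10, 115078641 to 115185022, minus strand), the form known from brain, stood at 0.725 and 0.906 RPKM in immature cells, 1.19 and 1.2 RPKM in mature cells, and 0.724 and 0.871 RPKM in double negative cells. The mature libraries lay above the others, while the immature and double negative ones overlapped. The immature values rest on 5 and 9 reads, with Poisson intervals of 0.236 to 1.69 and 0.414 to 1.72 RPKM that include the mature values. Tph2 differed by -0.28 between immature and mature cells (SE 0.11, limma adjusted p = 0.065), by 0.29 between mature and double negative cells (SE 0.11, limma adjusted p = 0.0652) and by 0.01 between immature and double negative cells (SE 0.11, limma adjusted p = 0.922). Tph2 entered the test only through the mature libraries, where it is high, so passing under a rescaling or without an immature library (-0.98 to -0.35 for the first, 0.29 to 0.60 for the second) is no support for a difference. With no filter on low values the first had a limma adjusted p = 0.113 and the second 0.128. Ddc exceeded Tph2 per kilobase by between 26.4 and 39.6 times in all 6 libraries.

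Tph1 (ENSMUSG00000040046.14, chromosome 7, 46644641 to 46672537, minus strand), the peripheral form, is the gene that lactogens induce in mouse islets during pregnancy. It stood at 0.454 and 0 RPKM in immature cells, 0.0115 and 0.0607 RPKM in mature cells, and 0.283 and 0.406 RPKM in double negative cells. The double negative libraries were above the mature ones, and the immature libraries lay on both sides of all others. With the annotated length, 3 reads would be worth 0.203 and 0.141 RPKM in the immature libraries. Tph1 values did not come out as whole reads, so no interval is given and the difference between the 2 immature libraries was not tested. Mast cells, another source of Tph1 in mice, were represented by 7 markers, whose sums lay between 4.57 and 4.66 RPKM in immature cells, 0.152 and 0.187 RPKM in mature cells, and 3.15 and 3.24 RPKM in double negative cells. Most of this was Kit, at 3.66 and 4.07 RPKM in immature cells, 0.0946 and 0.0586 RPKM in mature cells and 2.39 and 2.51 RPKM in double negative cells, a gene that other cells express too. Cpa3 and Fcer1a are listed at 0 in all 6 libraries, and Mcpt4, Tpsb2 and Cma1 only in the immature and mature ones, since they reached at most 0.253 RPKM in double negative cells. Hdc stood at 0.915 and 0.59 RPKM in immature cells, 0.0924 and 0.0934 RPKM in mature cells and 0.333 and 0.351 RPKM in double negative cells. The part of mast cells in the Tph1 values was not tested.

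The serotonin receptor genes were high in no population. Htr2b (ENSMUSG00000026228.6, chromosome 1, 86099026 to 86111970, minus strand), the Gq-coupled receptor linked to beta cell growth in pregnant mice, stood at 4.12 and 3.13 RPKM in immature cells, 0.0396 and 0.0175 RPKM in mature cells, and 0.213 and 0.33 RPKM in double negative cells. No population overlapped another. These rest on 21 and 23 reads for immature cells (Poisson intervals 2.55 to 6.29 and 1.98 to 4.7 RPKM), 2 and 1 for mature cells, and 10 and 16 for double negative cells. Such intervals cover counting error only, and reads without molecular identifiers are not independent molecules. Htr2b rose by 2.16 in immature relative to mature cells (SE 0.14, limma adjusted p = 6.16e-05) and by 1.86 relative to double negative cells (SE 0.14, limma adjusted p = 0.000181). Htr2b entered the test only through the immature libraries, where it is high, so it had to differ there. With no filter on low values the differences were the same, with limma adjusted p = 0.000807 and 0.0019. Mature and double negative cells differed by -0.30 (SE 0.14, limma adjusted p = 0.11), and with a pseudocount of 0.1 by -1.52 (limma adjusted p = 0.0059).

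Htr2b overlaps Psmd1, a proteasome subunit gene on the opposite strand, whose exons cover 252 of its 2131 exonic bases. How strand was counted is not given in the sources used here, so reads in these bases cannot be assigned. Psmd1 itself stood at 29.7 and 26.3 RPKM in immature cells, 24.7 and 23.8 RPKM in mature cells and 23.4 and 23.9 RPKM in double negative cells. In the mature and double negative libraries Htr2b was below 1 RPKM.

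Htr3a (ENSMUSG00000032269.8, chromosome 9, 48899213 to 48911099, minus strand) encodes a subunit of the serotonin-gated ion channel. It stood at 1 and 4.73 RPKM in immature cells, 0.0203 and 0 RPKM in mature cells, and 0.0435 and 0.0634 RPKM in double negative cells. The immature libraries lay above all others and differed widely between themselves, at 5 and 34 reads with Poisson intervals of 0.326 to 2.34 and 3.28 to 6.61 RPKM that do not meet. Htr3a differed by 1.75 between immature and mature cells (SE 0.46, limma adjusted p = 0.0167) and by 1.69 between immature and double negative cells (SE 0.46, limma adjusted p = 0.0226). It entered the test only through the immature libraries, where it is high, and with no filter on low values neither passed (limma adjusted p = 0.058 and 0.0728). The second did not pass after quantile normalization (limma adjusted p = 0.0535). Without mature replicate 1 or 2 the first was 1.76 and 1.73 with limma adjusted p = 0.0649 and 0.0703. Without double negative replicate 1 or 2 the second was 1.67 and 1.70 with limma adjusted p = 0.103 and 0.0953. Htr3b, the partner subunit, had 0 and 6 reads in the immature libraries, against 1 and 0 in the mature ones.

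Several marker lists were higher in the same immature libraries as Htr2b and Htr3a. All 6 macrophage and immune markers, 6 endothelial, 5 mesenchymal, 5 acinar and 3 glial markers rose in immature relative to mature and relative to double negative cells. The endothelial markers summed to between 706 and 745 RPKM in immature cells, 2.13 and 3.47 RPKM in mature cells and 171 and 180 RPKM in double negative cells. For the mesenchymal markers the sums lay between 77.2 and 117 RPKM in immature cells, 0.172 and 0.224 RPKM in mature cells, and 12.1 and 14.1 RPKM in double negative cells. The acinar sums were 6692 RPKM in immature replicate 1 and 21788 RPKM in immature replicate 2, against 90.9 to 131 RPKM in mature cells and 184 to 1551 RPKM in double negative cells. The 3 platelet markers summed to between 56.4 and 83 RPKM in immature cells, 0.0618 and 0.206 RPKM in mature cells and 0.567 and 1.5 RPKM in double negative cells. Most of the immature sum was Pf4, at 51 and 74.4 RPKM, and Ppbp stood at 5.01 and 8.3 RPKM. Itga2b did not follow the sum, at 0.383 and 0.266 RPKM in immature cells and 0.316 and 0.403 RPKM in double negative cells. Glial markers summed to between 10.2 and 10.3 RPKM in immature cells, 0.222 and 0.326 RPKM in mature cells and 1.43 and 1.65 RPKM in double negative cells. The macrophage and immune sums in double negative cells were 22.2 and 25.8 RPKM. The part of these cells in the Htr2b and Htr3a differences was not tested.

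Htr1d (ENSMUSG00000070687.11, chromosome 4, 136423524 to 136444398, plus strand), a Gi-coupled receptor, had 0 and 1 reads in immature cells, 1 and 0 reads in mature cells and 1 and 2 reads in double negative cells. The 3 reads that a count of 0 allows would be worth 0.392 RPKM in immature replicate 1 and 0.0349 RPKM in mature replicate 2, so no difference was detectable. Of 11 other serotonin receptor genes, none reached 1 RPKM in any library and 4 are listed at 0 in all 6. Htr5b stood at 0 RPKM in both immature libraries, 0.327 and 0.231 RPKM in mature cells on 15 and 12 reads, and 0 and 0.0227 RPKM in double negative cells, and the immature libraries were the shallowest. Htr1b stood at 0.619 and 0.552 RPKM in immature cells, 0 and 0.0158 RPKM in mature cells and 0.0672 and 0.14 RPKM in double negative cells, on 7 and 9, 0 and 2, and 7 and 15 reads.

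Over the 7 tested members, immature cells were higher than mature cells in 3 and lower in 1, while 3 did not pass, beside 49.8% of all tested genes called higher and 15.5% called lower (65.3% in either direction). Between mature and double negative cells 3 were higher, 1 lower and 3 not past the threshold, beside 23.1% of all genes called higher and 31.2% lower (54.3% in all). Between immature and double negative cells 5 were higher, 1 lower and 1 not past it, beside 45.9% called higher and 10.6% lower (56.6% in all). These counts are not a result about the members, since most genes passed as well, and Htr2b, Htr3a and Tph2 entered only through the population where each is high. Higher calls made up 76.2% of all calls for immature relative to mature cells, and 45.2% after median-ratio rescaling and 38.6% after quantile normalization. For immature relative to double negative cells the shares were 81.2%, 49.6% and 39.7% in that order of scalings. The median difference of the members was -0.03, 0.29 and 0.51 in the 3 comparisons, against 0.29, -0.08 and 0.24 for all tested genes. By the sex labels none of the members passed, beside 0% of all genes, while voom called 16 genes at an adjusted p under 0.05 and no member. In the main limma fit 228 genes had an unadjusted p under 0.05. Among the tested members, Prlr had the largest difference by sex label relative to its error. It was 0.25 higher in the libraries labelled female (SE 0.09, limma adjusted p = 0.971). Prlr was higher in replicate 2 in all 3 populations.

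**Figure D3:**
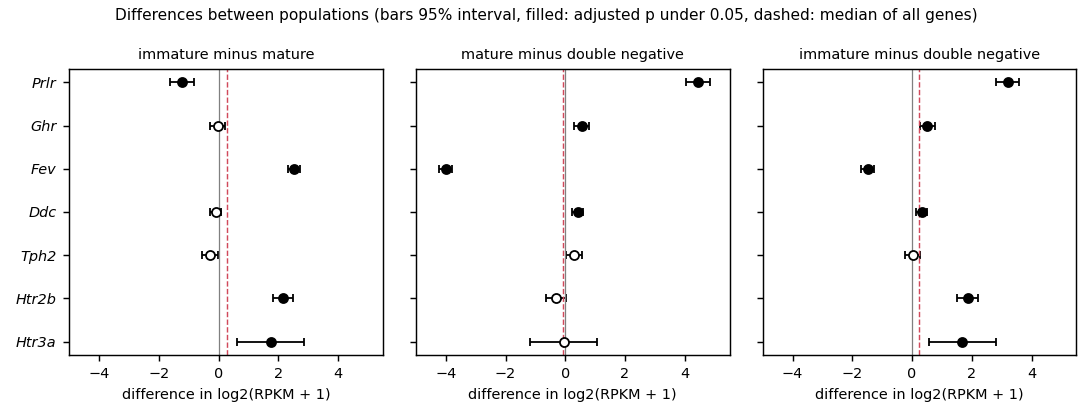
Differences in log2(RPKM + 1) (horizontal axis) for the 7 tested members (rows) in the 3 comparisons, with 95% intervals as bars, filled points at a limma adjusted p under 0.05 and a dashed line at the median of all tested genes. Prlr and Fev differ in opposite directions in each panel, while Ghr and Ddc stay within 0.55 of 0.

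Downstream of both receptors, 18 of 19 listed signalling genes were tested. Between immature and mature cells 12 rose and 4 fell, beside 49.8% of all tested genes higher and 15.5% lower, and these counts became 6 and 6 after median-ratio rescaling and 5 and 7 after quantile normalization, with Stat5a and Stat5b changing sign under both. Jak2, the kinase bound to both receptors, stood at 19.1 and 18.1 RPKM in immature cells, 9.56 and 8.87 RPKM in mature cells and 9.24 and 10.8 RPKM in double negative cells. It rose by 0.94 in immature relative to mature cells (SE 0.09, limma adjusted p = 0.00029), and this call held under both rescalings. Macrophage, immune and endothelial markers rose in the same libraries. Their part in the Jak2 difference, or in those of Cish and Socs2 below, was not tested. The largest rise of the list was that of Igf1, a growth factor that growth hormone induces in liver, at 1.1 and 1.32 RPKM in immature cells and 0 RPKM in both mature libraries. It was 1.14 higher (SE 0.11), and all 6 macrophage and immune markers rose in the same libraries, whose part in it was not tested.

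Among the feedback inhibitors, Cish measured 4.23 and 4.65 RPKM in immature cells, 2.01 and 1.92 RPKM in mature cells and 3.55 and 3.17 RPKM in double negative cells. Its rise of 0.88 in immature relative to mature cells (SE 0.09, limma adjusted p = 0.000447) was 0.15 and did not pass after quantile normalization. Socs2, a STAT5 target, rose by 0.47 (SE 0.09, limma adjusted p = 0.00624). After quantile normalization it was called in the opposite direction, at -0.28 (limma adjusted p = 0.0285). After median-ratio rescaling its difference of 0.14 did not pass (limma adjusted p = 0.195). Stat5a and Stat5b, the transcription factors themselves, differed by 0.30 and 0.23 between immature and mature cells, and by 0.06 and -0.14 between mature and double negative cells, where neither passed. The adaptor gene Irs2 fell by 0.84 and the signalling phosphatase gene Ptpn11 by 0.58 in immature relative to mature cells. Between mature and double negative cells 5 of the 18 signalling genes were higher, 5 were lower and 8 did not pass, beside 23.1% of all tested genes higher and 31.2% lower.

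Transcripts of the ligands were also seen. The prolactin gene Prl stood at 2.8 and 5.51 RPKM in immature cells, 0.188 and 0.0417 RPKM in mature cells and 0.0506 and 1.57 RPKM in double negative cells. It rose by 2.16 in immature relative to mature cells (SE 0.45, limma adjusted p = 0.0073). The growth hormone gene Gh stood at 0 and 1.35 RPKM in immature cells, 0 and 0.0865 RPKM in mature cells and 0 and 1.33 RPKM in double negative cells, with 4, 2 and 26 reads in replicate 2 of these populations and none in replicate 1. The placental lactogen genes Prl3d1 and Prl3b1 are listed at 0 in all 6 libraries. Of 8 related cytokine receptors 5 were tested, and 3 rose and 1, Il6st, fell, with a difference of -0.17 between immature and mature cells. Among all tested genes 49.8% were called higher and 15.5% lower. The Il6st call was lost without immature replicate 1, either mature replicate or either double negative replicate (limma adjusted p between 0.0569 and 0.189). The risen were the oncostatin M receptor gene Osmr with 1.82 (SE 0.11), the granulocyte colony-stimulating factor receptor gene Csf3r with 1.79 (SE 0.14) and Il6ra with 0.41, which was -0.04 after quantile normalization. Csf3r, a receptor of myeloid cells, had 18 and 36 reads in immature cells and 0 reads in all other libraries. All 6 macrophage and immune markers rose in the same libraries, and their part was not tested. Osmr and Csf3r, like Igf1, Slc18a2 and Gata2, entered the test only through the immature libraries.

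Genes known to respond to prolactin in rodent beta cells moved in both directions. Of 10 tested, 4 rose and 5 fell in immature relative to mature cells, beside 49.8% of all tested genes higher and 15.5% lower. After median-ratio rescaling and after quantile normalization 2 rose and 6 fell. Bcl6, a transcriptional repressor, rose by 0.88 (SE 0.15), and by 0.12 after quantile normalization without passing. Slc2a2 fell by 1.21 (SE 0.19). Tnfrsf11b, which encodes osteoprotegerin, fell by 0.73 in immature relative to mature cells, at 8.89 and 7.92 against 14.9 and 14.4 RPKM, and stood at 2.96 and 4.25 RPKM in double negative cells, the same order as Prlr.

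Genes of cofactor and precursor supply for serotonin were called in both directions. Of 9 tested, 4 rose and 4 fell in immature relative to mature cells, beside 49.8% of all tested genes higher and 15.5% lower. After median-ratio rescaling 2 rose and 5 fell, and after quantile normalization 2 rose and 4 fell. Slc7a5, a transporter of large neutral amino acids such as tryptophan, fell by 1.002 (SE 0.06, limma adjusted p = 4.96e-05), at 84.2 and 85.9 RPKM in immature cells against 174 and 169 RPKM in mature cells. The amino acid transporter gene Slc7a8 rose by 0.69 (SE 0.08). Gch1, which makes the hydroxylase cofactor tetrahydrobiopterin from GTP, stood at 124 and 130 RPKM in immature cells, 154 and 150 RPKM in mature cells and 118 and 112.5 RPKM in double negative cells. It fell by 0.26 in immature relative to mature cells (SE 0.05, limma adjusted p = 0.00571).

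Of 7 tested genes that store, move, degrade or use serotonin, 4 rose and 1 fell in immature relative to mature cells. The counts were 4 and 2 after median-ratio rescaling and 3 and 2 after quantile normalization. Among all tested genes 49.8% were called higher and 15.5% lower. Maob, a monoamine oxidase, stood at 37.6 and 35.3 RPKM in immature cells, 91.9 and 93.3 RPKM in mature cells and 56.2 and 52 RPKM in double negative cells, and it fell by 1.32 in immature relative to mature cells (SE 0.06). Maoa, the isoform with the higher affinity for serotonin, was lower in level, at 8.32 and 5.36 RPKM in immature cells, 4.77 and 4.26 RPKM in mature cells and 6.34 and 7.1 RPKM in double negative cells, with a difference of 0.48 between immature and mature cells (SE 0.18, limma adjusted p = 0.0603). Tgm2, a transglutaminase that can couple serotonin to proteins, rose by 3.88 (SE 0.08) and Aldh2, an aldehyde dehydrogenase, by 1.84 (SE 0.06). Tgm2 is also expressed in endothelial cells, all 6 of whose markers rose in the same libraries, and their part was not tested.

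The vesicular transporters differed between populations. Slc18a1 stood at 4.18 and 2.9 RPKM in immature cells, 4.11 and 4.29 RPKM in mature cells and 0.848 and 1.02 RPKM in double negative cells, and it rose by 1.43 in mature relative to double negative cells (SE 0.15, limma adjusted p = 0.000559). Slc18a2 stood at 1.1 and 1.75 RPKM in immature cells, 0.322 and 0.363 RPKM in mature cells and 0.453 and 0.532 RPKM in double negative cells. Its rise of 0.84 in immature relative to mature cells (limma adjusted p = 0.0039) was 0.11 after quantile normalization and did not pass. Slc6a4, the plasma membrane serotonin transporter, had 5 and 2 reads in immature cells, 1 and 0 in mature and 2 and 4 in double negative cells.

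**Figure D4:**
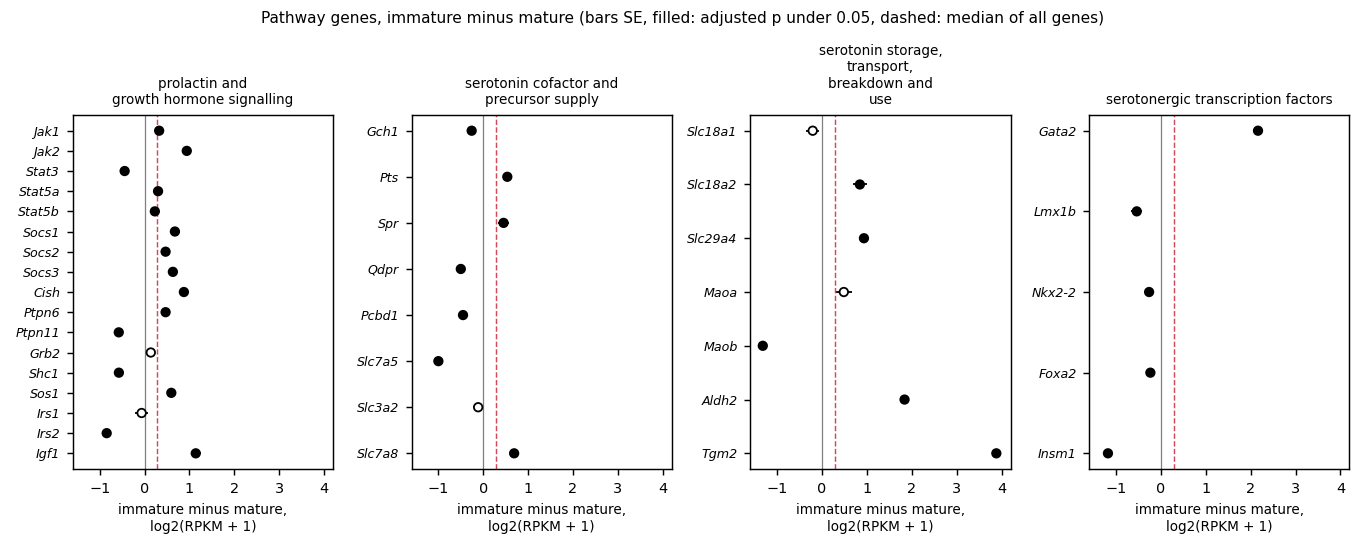
Immature minus mature difference in log2(RPKM + 1) (horizontal axis) with its SE as a bar for the tested genes of 4 lists that are reported here (panels), filled where the limma adjusted p was under 0.05, with a dashed line at the median of all tested genes, 0.29. The signalling genes lie between -0.84 and 1.14, and Tgm2 at 3.88 lies farthest from 0.

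Transcription factors of the serotonin program were called in both directions. Of 6 tested, 2 rose and 4 fell in immature relative to mature cells, beside 49.8% of all tested genes higher and 15.5% lower. These counts were the same after both rescalings. Without mature replicate 1 the fallen were 1, and without mature replicate 2 they were 2. Gata2, which lies upstream of Fev in hindbrain neurons, rose by 2.16 (SE 0.09), at 3.56 and 3.44 RPKM in immature cells, 0.00781 and 0 RPKM in mature cells and 0.647 and 0.717 RPKM in double negative cells. Gata2 entered the test only through the immature libraries. It is also an endothelial and blood cell factor, and the part of the endothelial markers, which rose in the same libraries, was not tested. Insm1, a zinc finger factor of endocrine cells, fell by 1.18 (SE 0.07). Lmx1b, needed for serotonergic neurons, was low, at 1.46 and 1.07 RPKM in immature cells, 2.46 and 2.09 RPKM in mature cells and 1.18 and 1.21 RPKM in double negative cells. Th, which makes the catecholamine precursor that Ddc also uses, fell by 0.65 in immature relative to mature cells (SE 0.13, limma adjusted p = 0.00553), at 3.53 and 4.78 against 7.15 and 6.94 RPKM, and was at 2.34 and 2.51 RPKM in double negative cells. Dbh and Pnmt, the later enzymes of that pathway, did not reach 1 RPKM.

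The most alike genes were Cpeb4, Rnft1 and Glb1l2 for Ghr, at root mean square differences of 0.0428, 0.0487 and 0.0496, and Tapbp, Alad and Tbc1d20 for Ddc, at 0.0289, 0.0314 and 0.038. Ghr departs from its own mean by 0.264 and Ddc by 0.187.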

How the data were processed

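Islet cells were sorted into Trizol and made into TruSeq libraries, per the labels' protocols. The authors deposited RPKM values, with 1 column for each of 6 libraries, all matched by title. STAR 2.5, featureCounts, edgeR 3.14.0 and GRCm38.p4 are named per the submitters' processing notes, without settings, and the treatment of strand and multimapping reads is not given in the sources used here. Since RPKM is scaled to the library, abundant hormone transcripts lower the RPKM of other genes.

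Genes reaching 1 RPKM in 2 or more libraries entered a limma 3.58.1 fit (R 4.3.3) of log2(RPKM + 1), using group means over all 6 libraries, an intensity trend and Benjamini-Hochberg adjustment at 0.05. This scale understates changes of low genes. The fit takes 1 spread for all populations, while replicates differed with an SD of 0.393 (immature), 0.132 (mature) and 0.222 (double negative). The fit was also run on simulated data. These gave all libraries the spread of the mature replicates beside counting error, so they do not check the fit under such unequal spreads. Reads were recovered from RPKM steps with GENCODE M21 exonic lengths, and between 78.1% and 83.8% of values under 200 reads came within 0.02 of a whole read. The sex labels and Eif2s3y differ by replicate number, but whether replicates came from separate sets of animals is not settled. The p-values therefore measure the spread between these libraries.

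Members and lists were chosen with earlier results of these data known. All members are named. Of each list the 3 largest called differences between immature and mature cells and known partners of the members are named, and Tnfrsf11b, Irs2, Ptpn11, Il6st, Lmx1b, Htr1b, Htr3b and Htr5b were added after their values were seen. Results for some list genes are not reported here, while the list counts include them. Alike genes are the 3 nearest with a group mean of at least 5 RPKM, predicted genes left out.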

Additional observations from a re-analysis of the deposited data

How the results depend on the processing

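Prlr and Fev kept direction and call in all 3 comparisons under each of 16 alternatives, with Prlr between -1.65 and -1.07 for immature against mature cells and Fev between 1.91 and 4.41. Htr2b kept both for immature against mature and against double negative cells under 13. Htr2b entered the test only through the immature libraries, so this is no support for its differences. It dropped out of the test at the filter of 5 RPKM and without either immature library. Of 416 member values under alternatives, 373 kept their side of the threshold, 23 lost a call and 19 gained one. The 373 include values that changed sign where neither the main nor the alternative value passed. In 1 case the sign changed and a value passed, Tph2 in immature against double negative cells, at -0.38 after quantile normalization. The scaling moved the share of higher among called genes from 76.2% to 45.2% (median ratios) and 38.6% (quantiles) for immature against mature cells, from 81.2% to 49.6% and 39.7% between immature and double negative cells, and from 42.6% to 52.4% and 49.8% for mature against double negative cells.

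Voom ran on only 9001 genes with whole reads and called 5637 genes for immature against mature (8728 in the full table), 4828 for immature against double negative (7563) and 16 for the sex labels (0). Members past the threshold for immature against mature cells numbered 4, with 2 at a filter of 5 RPKM, which leaves fewer tested, and 7 after median-ratio rescaling. Leaving out each library in turn gave 2 to 4 such members, 2 of them without immature replicate 1. Relative to Ins1 it gave 1 to 7, where the full data gave 6, with 1 without immature replicate 1 or 2 and 3 without mature replicate 1 or 2. For mature against double negative cells it gave 4 to 5 and for immature against double negative cells 4 to 6. Counts over all genes ran from 6297 to 8867 for immature against mature, 5016 (without double negative replicate 1) to 7910 for immature against double negative, 4720 (without mature replicate 2, against 7256 in the full data) to 8657 for mature against double negative, and 6281 to 13135 relative to Ins1. The last was 12871 in the full data, 6281 without immature replicate 1 and 6917 without mature replicate 2. The cause was not tested. Deviations of same-numbered libraries correlated at -0.01 (immature and mature), -0.11 (mature and double negative) and 0.14 (immature and double negative) over 13367 genes. Pairs were not assumed, although such correlations include counting error and cannot exclude them. The design text says that the populations came from the same islets, without tying numbers to pools. Sample titles share a tag by replicate number across the populations, whose meaning is not given. With the replicate number as a block, 8407 genes passed between immature and mature cells, 6803 between mature and double negative cells and 7073 between immature and double negative cells (12948 relative to Ins1), and the number of members called was the same. The immature depth limits Tph1, Tph2, Htr1d and Htr3a.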
